A study of Mus musculus with 16 samples.

Results

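Integrins are the cell surface receptors that tie cells to the extracellular matrix. Here 9 integrin subunit genes were followed, chosen by name from the 27128 genes of each table: the alpha subunits Itga1, Itga2, Itga3, Itga5, Itga6 and Itgav and the beta subunits Itgb1, Itgb3 and Itgb5. All 9 had a row in every table, and 8 of them passed a filter on low values, an average of 1 CPM or more (read counts scaled for library size, not gene length), the exception being Itga2. The RNA came from germline stem cells of male mice kept in culture, the counterpart of the stem cells of spermatogenesis, and made up 12 libraries in 4 experiments, with 1 library per group. All cells came from germ cells of B6;CBA-Tg(Pou5f1-EGFP)2Mnn/J mice, which carry a green fluorescent reporter of the Pou5f1 (Oct4) promoter, taken at postnatal day 5.5, sorted as Oct4-positive and KIT-negative, and the medium was serum-free and held GDNF, bFGF and EGF. The feeder-removal series had cells on mouse embryonic fibroblast (MEF) feeders (day 0) and cells 4 and 9 days after transfer to Matrigel, a basement membrane extract rich in laminin. The density experiment compared sparse Matrigel (0.1 µg/cm2), on which the culture is labelled epithelial-like, with dense Matrigel (10 µg/cm2), on which it is labelled mesenchymal-like. Cells grown on Matrigel at 10 µg/cm2 were also sorted by the reporter into fractions called GFP-low, GFP-mid and GFP-high. In the inhibitor series the cells, on MEF feeders, received DMSO, the solvent control, or the G9a inhibitor UNC0638 at 0.5, 1 or 2 µM, with a treatment time of 48 hours.

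Each integrin is a pair of 1 alpha and 1 beta subunit, and the alpha subunit largely sets the ligand. Itga6 and Itga3 form laminin receptors, Itga5 forms the classical fibronectin receptor, Itgav forms receptors of fibronectin and vitronectin, and Itga1 and Itga2 form collagen receptors. Itgb1 is the common partner of most of these alpha subunits, while Itgb3 and Itgb5 pair with Itgav. Itga6 and Itgb1 are widely used surface markers of spermatogonial stem cells, which rest on the laminin-rich basement membrane of the seminiferous tubule.

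Library totals ranged from 4335185 to 12019651 expected counts, and 3 counts, taken as the floor, stood for 0.238 to 0.724 CPM. The 10 germ cell markers were all present in all 12 libraries, with a summed level of 2899.7 to 4226 TPM (a transcript level scaled to gene length and to the library). The 12 fibroblast markers summed to 1486 TPM in the mesenchymal-like library and 960.5 TPM with DMSO, against 24.4 to 308 TPM in the other 10 libraries. The 10 myeloid markers summed to 404 and 324 TPM in the GFP-low and GFP-mid libraries and to 56.2 TPM or less elsewhere. The mesenchymal-like and DMSO libraries therefore stood apart in fibroblast markers, each within its own experiment. Leaving out either removes the comparison it belongs to, so only ranges over libraries are also given without the mesenchymal-like one. No difference below has a replicate check, and the counting intervals (95%, Clopper-Pearson, from the split of reads between 2 libraries) cover counting error only. No group occurs in more than 1 experiment, so a difference between experiments and one between batches cannot be told apart.

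Itgb1 was the most abundant of the 9 subunits per unit of length in every library. Its lowest, median and highest levels were 92.3, 113 and 401 TPM, a range of 4.34-fold, and of 1.73-fold (92.3 to 160 TPM) without the mesenchymal-like library. The laminin receptor subunit Itga6 ranged from 9.05 to 19.1 TPM around a median of 15.6 TPM, and was the highest of the 6 alpha subunits in 8 of 12 libraries; Itga5 was the highest in the other 4 (days 0 and 4, mesenchymal-like and DMSO). Itga5 had a median of 7.49 TPM but spanned 3.09 to 114 TPM, a range of 36.95-fold, and of 6.06-fold without the mesenchymal-like library. Itgav spanned 2.45 to 22.4 TPM (9.12-fold, and 3.80-fold without that library). The ranges of Itga3, Itga1 and Itgb5 were narrower, at 3.29 to 7.65, 2.05 to 4.63 and 10.4 to 22.3 TPM. Itgb3 ran from 3.20 to 11.4 TPM. Itga2 was at 0 counts in 6 libraries and at 9 counts or fewer in the rest, at most 0.42 TPM in the GFP-high library, so a level above the floor was visible in few libraries. Among the 8 tested members, the fibronectin receptor subunits Itga5 and Itgav thus varied most. The laminin receptor subunits Itga3 (2.33-fold) and Itga6 (2.10-fold) had ranges like those of Itga1 (2.26-fold) and Itgb5 (2.15-fold). The range of Itgb3 was 3.55-fold with or without the mesenchymal-like library. Itga7 and Itgb4, laminin receptor subunits that are not members, differed between the sorted fractions (see Other observations).

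**Figure D1:**
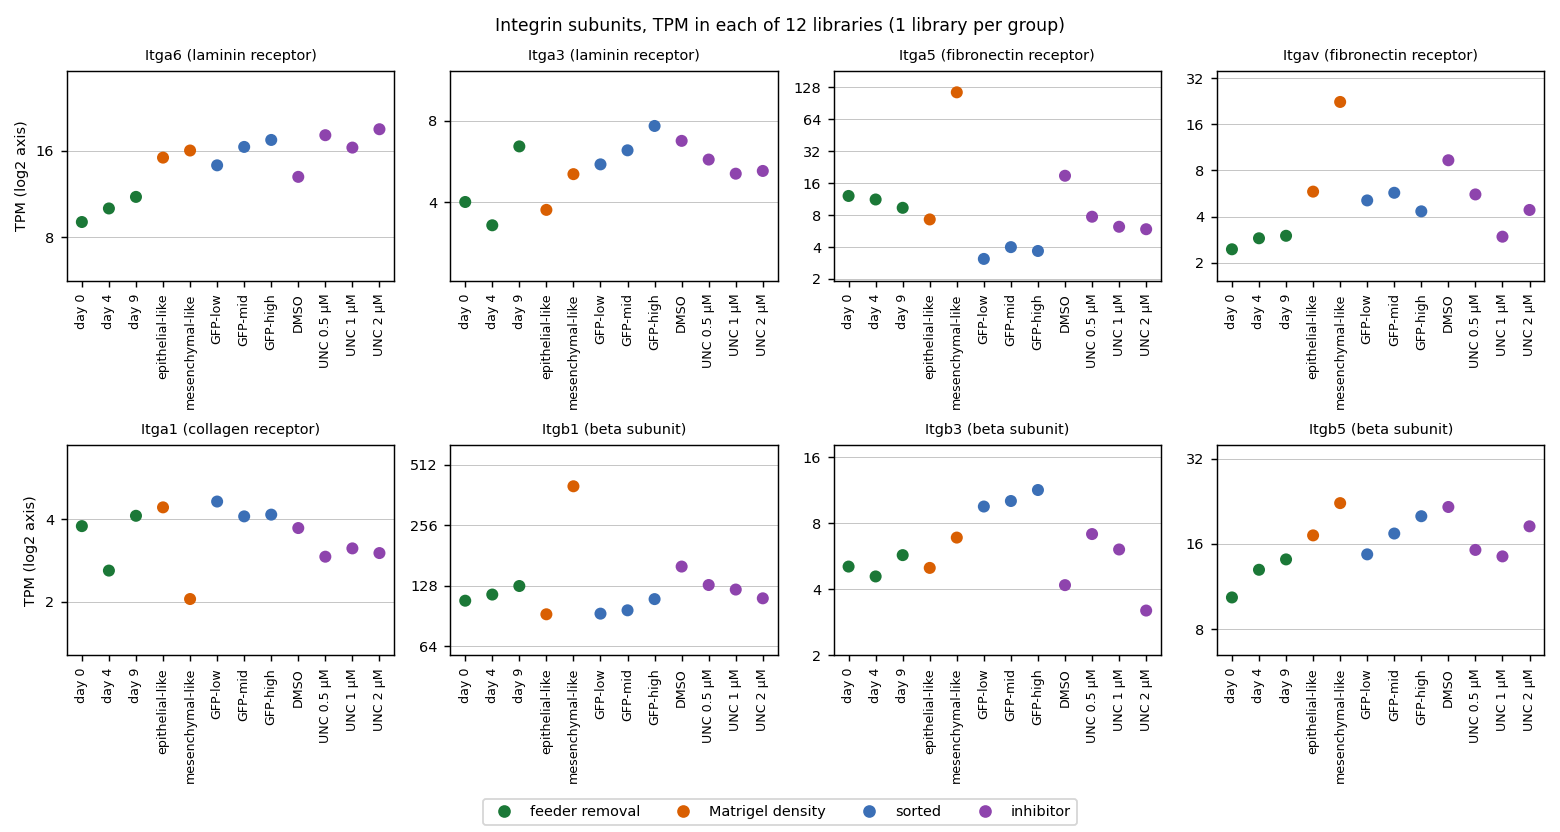
TPM on a log2 axis for 8 integrin subunits in each of 12 libraries, 1 point per library, coloured by experiment; Itga2 is left out because it was at 0 in 6 libraries. Itga5 reached 114 TPM, Itgav 22.4 TPM and Itgb1 401 TPM in the mesenchymal-like library, while Itga6 stayed between 9.05 and 19.1 TPM.

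The density experiment asked how cells on dense Matrigel differ from those on sparse Matrigel, and among comparisons within an experiment it held the largest differences of Itga5, Itgb1 and Itgav. Itga5 rose from 7.27 TPM (89 counts) in the epithelial-like library to 114 TPM (1417 counts) in the mesenchymal-like library. The log2 ratio of CPM + 1 was 3.97 (counting interval 3.72 to 4.36), and 98.8% of tested genes had a lower ratio. Its partner Itgb1 rose from 92.3 to 401 TPM, with a log2 ratio of 2.17 (2.07 to 2.28). Itgav, the other fibronectin receptor subunit, rose from 5.82 to 22.4 TPM, with a log2 ratio of 1.93 (1.59 to 2.43). These were the only 3 of the 8 tested members past 2-fold, all higher, where 12.5% of 14301 tested genes were past 2-fold in either direction, 10.7% higher and 1.78% lower. These were 1527 higher and 254 lower genes, and 2010 and 121 when centred on the germ cell markers.

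The laminin receptor subunits had no such difference between the densities. Itga6, the surface marker of spermatogonial stem cells, was at 15.2 TPM in the epithelial-like and 16.1 TPM in the mesenchymal-like library. Its log2 ratio of 0.14 had an interval of -0.16 to 0.45, which does not reach 2-fold in either direction. Itga3 was at 3.75 and 5.08 TPM, a log2 ratio of 0.46 (-0.04 to 1.05), and a difference of that size was not detectable at this depth. The collagen receptor subunit Itga1 went the other way, at 4.41 and 2.05 TPM (49 and 23 counts), with a log2 ratio of -0.93 (-1.83 to -0.31). The pseudocount decided this call: at 0.1 the ratio was -1.04, past 2-fold lower, and 4 members were past 2-fold. Itgb3 was at 5.01 and 6.89 TPM (0.47, -0.13 to 1.17) and Itgb5 at 17.1 and 22.3 TPM (0.42, 0.11 to 0.76). The ratios of Itgb3 and Itgb5, which pair with Itgav, were thus under 2-fold. That of Itgb1, which pairs with both fibronectin receptor subunits, was not. The Itgb3 interval reached past 2-fold, so a rise of that size is not excluded for Itgb3.

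The promoters of Itga5 and Itgb1 are shown because these 2 subunits form 1 receptor and rose together in the mesenchymal-like library. Each window is the 250 bases before the RefSeq start of the gene on build GRCm38.p6, and capitals mark matches to GGGCGG (the SP1 motif), TGANTCA (AP-1), GGAATG (TEAD) or CACCTG (an E-box), searched on both strands. The Itga5 window lies at chr15:103366792-103367041 on the minus strand, and the gene spans 103344286 to 103366791. The Itgb1 window lies at chr8:128685404-128685653 on the plus strand, and the gene spans 128685654 to 128733579.
Itga5: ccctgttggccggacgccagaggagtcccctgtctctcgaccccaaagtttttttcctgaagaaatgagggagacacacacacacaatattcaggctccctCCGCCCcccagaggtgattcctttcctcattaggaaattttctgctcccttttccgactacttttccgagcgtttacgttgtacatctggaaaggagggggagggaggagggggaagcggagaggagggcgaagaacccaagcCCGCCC
Itgb1: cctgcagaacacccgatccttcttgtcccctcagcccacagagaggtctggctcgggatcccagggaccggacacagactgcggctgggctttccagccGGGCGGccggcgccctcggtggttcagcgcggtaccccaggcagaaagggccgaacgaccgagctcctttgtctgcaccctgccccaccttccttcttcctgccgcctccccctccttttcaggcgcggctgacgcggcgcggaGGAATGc
The Itga5 window held 2 matches to GGGCGG, both on the opposite strand as CCGCCC, and none of the other 3 motifs. The Itgb1 window held 1 match to GGGCGG and 1 to GGAATG, next to the start, and neither TGANTCA nor CACCTG. Over 32851 RefSeq windows of the same length, 32.7% held GGGCGG, 12.6% GGAATG, 17.2% CACCTG and 6.75% TGANTCA. The matches are a description of these letters, and GGGCGG, the motif the windows share, is common among all promoters.

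Fibroblast markers moved with the fibronectin receptors in the density experiment. Of the 12 fibroblast markers, 11 were past 2-fold higher in the mesenchymal-like library, with a median log2 ratio of 3.92 against -0.06 over all tested genes, and their summed level was 72.7 and 1486 TPM. All 12 were above 0 counts in both libraries. Of 6 tested markers of testis somatic cells, 2 were past 2-fold higher and none lower, with a median log2 ratio of 0.13. They were Acta2 and Sox9. Acta2, the actin of smooth muscle and myofibroblasts, was at 1.90 and 163.6 TPM. It made up most of the marker sum of 174 TPM in the mesenchymal-like library, but not of the 7.16 TPM in the epithelial-like library. Sox9, a transcription factor of Sertoli cells among others, was at 1.74 and 8.07 TPM (2.06, 1.57 to 3.05). The germ cell markers summed to 3495 TPM in the epithelial-like and 2899.7 TPM in the mesenchymal-like library, with all 10 lower and none past 2-fold (median log2 ratio -0.23). The part of fibroblast-like or testis somatic cells in the rise of Itga5, Itgav and Itgb1 was not tested. In bulk RNA, fewer cells of a type and less RNA per cell cannot be told apart.

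The sorted fractions were grown on Matrigel of the same density as the mesenchymal-like culture and had low fibronectin receptor levels. Itga5 was at 3.09, 3.99 and 3.67 TPM in the fractions from GFP-low to GFP-high, the lowest 3 of the 12 libraries. The mesenchymal-like library, which was not sorted, had 34.02 times the Itga5 CPM of the GFP-mid fraction, a log2 ratio of 4.96 (4.83 to 5.36). Itgb1 was at 93.0, 96.6 and 110 TPM in the fractions and Itgav at 5.10, 5.72 and 4.33 TPM, close to the epithelial-like levels. Against GFP-mid, Itga5, Itgb1 (2.30, 2.23 to 2.37) and Itgav (2.13, 1.92 to 2.52) were the 3 of 8 members past 2-fold, all higher, where 16.5% of tested genes were past 2-fold, 10.3% higher and 6.19% lower. That split was 1479 higher and 885 lower genes, 1224 and 1292 when scaled to total counts, 1100 and 1248 with the deposited TPM, and 1912 and 547 when centred on the germ cell markers. Itga6 was at 16.5 TPM in GFP-mid and 16.1 TPM in the mesenchymal-like library (0.20, -0.04 to 0.45). The fibroblast markers summed to 24.4, 40.4 and 74.5 TPM in the 3 fractions, with 1 of the 12 at 0 in each. Sorting and experiment differ together in this pair of libraries and cannot be told apart.

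Among the fractions themselves the question was whether cells with more Pou5f1 reporter activity differ. None of the 8 tested members was past 2-fold between GFP-high and GFP-low, where 9.54% of tested genes were (6.94% higher and 2.59% lower), nor between GFP-mid and GFP-low, where 4.07% were (3.38% higher and 0.685% lower). When centred on the germ cell markers, the genes past 2-fold went from 993 higher and 371 lower to 1741 and 227 for GFP-high, and from 484 and 98 to 964 and 39 for GFP-mid. Itga6 was at 14.3, 16.5 and 17.5 TPM from low to high, and the log2 ratio of 0.14 for high against low had an interval of -0.08 to 0.37. Itga3 was at 5.52, 6.22 and 7.65 TPM (0.30, -0.01 to 0.65) and Itgb5 at 14.7, 17.4 and 20.03 TPM (0.28, 0.03 to 0.56). Itgb3 was at 9.55, 10.1 and 11.4 TPM (0.09, -0.26 to 0.46), and these were its highest 3 values of the 12 libraries. Neither Itga5 (0.08, -0.39 to 0.59) nor Itgav (-0.35, -0.83 to 0.05) had an interval that excluded no change. For high against low, the counting interval of each of the 8 tested members lay inside 2-fold. Itga2, under the filter, was at 0, 0 and 9 counts from GFP-low to GFP-high; its log2 ratio of 0.97 for high against low had an interval from 0.74 upwards with no upper bound, and it passed 2-fold with total counts (1.02), germ cell centring (1.23) and a pseudocount of 0.1 (3.40).

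The inhibitor series asked how cells on feeders respond to loss of G9a activity, and there the fibronectin receptor subunits Itga5 and Itgav were lower at every dose. Itga5 was at 18.7 TPM with DMSO and 7.71, 6.20 and 5.88 TPM with 0.5, 1 and 2 µM UNC0638. The log2 ratios against DMSO were -1.23 (-1.62 to -0.94), -1.52 (-1.93 to -1.23) and -1.57 (-2.04 to -1.24), so the DMSO library was above all 3 doses. Itgav was at 9.32 TPM with DMSO and 5.58, 2.96 and 4.42 TPM with the inhibitor, lowest at the middle dose. Its log2 ratios were -0.69 (-1.20 to -0.28), -1.51 (-2.20 to -1.09) and -0.97 (-1.57 to -0.52), so each interval lay below 0. The 2-fold mark was passed at 1 µM, and at 2 µM the call depended on the pseudocount, with a log2 ratio of -1.03 at a pseudocount of 0.1; the difference between doses was not tested. The count of members past 2-fold was 1 of 8 at 0.5 µM, 2 at 1 µM and 1 at 2 µM, all lower, where 3.71%, 6.71% and 7.01% of tested genes were past 2-fold. Of all tested genes 2.13%, 4.12% and 3.59% were lower and 1.58%, 2.59% and 3.42% higher. When centred on the germ cell markers, the split of all called genes went from 226 higher and 305 lower to 177 and 408 at 0.5 µM, and from 489 and 514 to 845 and 341 at 2 µM. The 3 comparisons share the DMSO library.

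The laminin receptor subunit Itga6 stood on the other side of DMSO. It was at 13 TPM with DMSO and 18.2, 16.4 and 19.1 TPM with 0.5, 1 and 2 µM, higher at each dose but under 2-fold. The log2 ratios were 0.48 (0.19 to 0.78), 0.35 (0.06 to 0.65) and 0.58 (0.29 to 0.89), and no counting interval included 0. Itga3 was at 6.74 TPM with DMSO and 5.75, 5.10 and 5.22 TPM with the inhibitor, and each interval included 0. Itgb1, the shared partner, was at 160 TPM with DMSO and 129, 123 and 111 TPM with rising dose. Its log2 ratios of -0.30, -0.36 and -0.48 were well under 2-fold, and the interval at 2 µM was -0.60 to -0.37. Itgb3 had no shared direction, at 4.18 TPM with DMSO and 7.15, 6.08 and 3.20 TPM with the inhibitor (32, 57, 54 and 22 counts), and Itgb5 was at 21.6, 15.2, 14.5 and 18.5 TPM. Itga1 was at 3.71, 2.92, 3.13 and 3.01 TPM, and no interval excluded no change.

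Fibroblast markers moved with Itga5 and Itgav in this series too. The 12 markers summed to 960.5 TPM with DMSO and 308, 115 and 153 TPM with 0.5, 1 and 2 µM. Past 2-fold lower were 9, 12 and 10 of the 12, with median log2 ratios of -1.47, -2.83 and -1.94 against -0.01, 0.00 and -0.02 over all tested genes. The cultures were on MEF feeders, which the markers also describe, and the part of feeder cells in the lower Itga5 and Itgav was not tested. The 10 germ cell markers summed to 3783 TPM with DMSO and 4226, 4128 and 4036 TPM with the inhibitor, but 3, 6 and 6 of them were lower, with median log2 ratios of 0.10, -0.04 and -0.18, and none was past 2-fold.

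**Figure D2:**
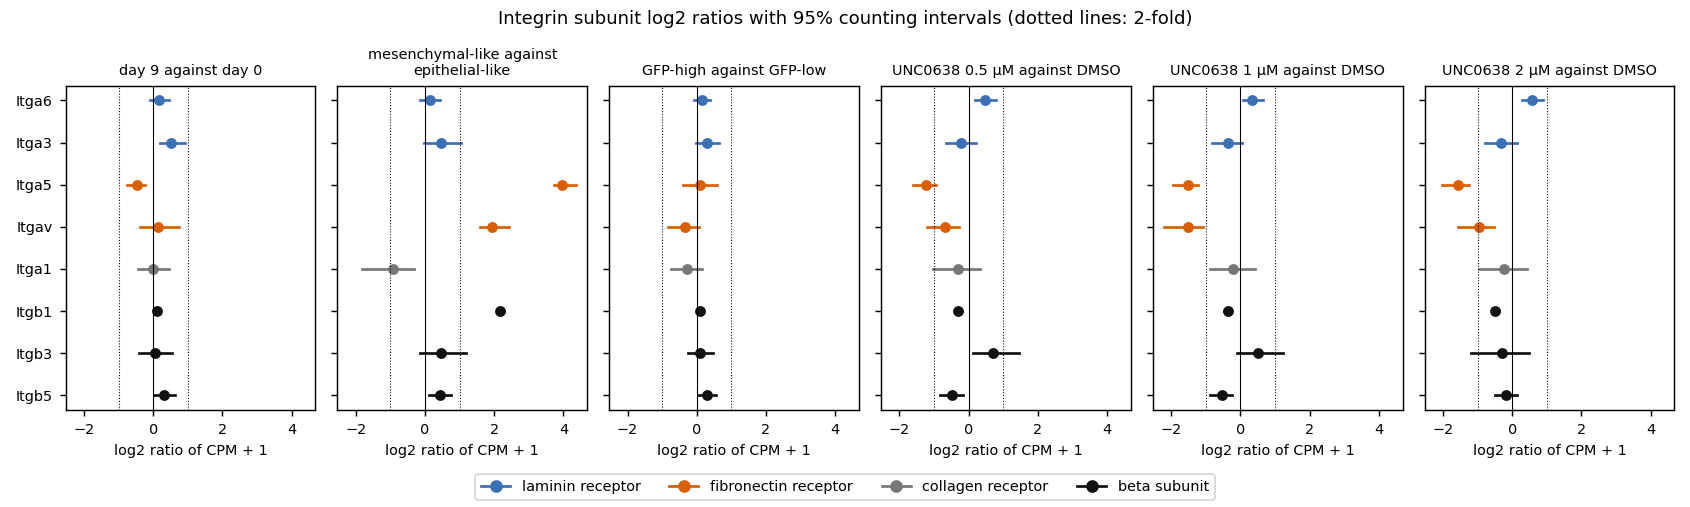
Log2 ratios of CPM + 1 (points) with 95% counting intervals (bars) for 8 integrin subunits in 6 comparisons; dotted lines mark 2-fold and colours the ligand class. Itga5 lies at 3.97 in the mesenchymal-like culture and at -1.23, -1.52 and -1.57 with UNC0638, while Itga6 lies between 0.14 and 0.58 in the comparisons shown.

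The feeder-removal series asked what changes once the cells leave the feeder layer. None of the 8 tested members was past 2-fold at day 4 or day 9, where 2.28% and 2.6% of tested genes were (1.25% and 1.62% higher, 1.03% and 0.979% lower). At day 9 these were 232 higher and 140 lower genes, and 161 and 192 when centred on the germ cell markers. Itga5 was at 12.1, 11.2 and 9.35 TPM at days 0, 4 and 9, with a log2 ratio of -0.48 (-0.75 to -0.24) at day 9. Itga6 was at 9.05, 10.1 and 11.1 TPM (0.16, -0.10 to 0.44 at day 9). Itga3 was at 4.01, 3.29 and 6.43 TPM, with a log2 ratio of 0.52 (0.19 to 0.93) at day 9. Itgb1 was at 108, 116 and 128 TPM and its log2 ratio at day 9 was 0.12 (0.04 to 0.20), 0.24 with the deposited TPM and 0.03 when centred on the germ cell markers. Itgb5 was at 10.4, 12.96 and 14.1 TPM, and Itgav at 2.45, 2.89 and 3.0 TPM, its lowest values beside the 1 µM library. The fibroblast markers summed to 79.3, 66.6 and 87.1 TPM at days 0, 4 and 9, with 1 of the 12 at 0 on day 9. Itga1 was at 3.77, 2.6 and 4.11 TPM. Its log2 ratio at day 4 was -0.49 (-1.05 to -0.06), an interval that excludes no change and reaches past 2-fold. Itgb3 was at 5.08, 4.58 and 5.73 TPM. The ratios of the 8 tested subunits thus stayed under 2-fold of their level on feeders, though the Itga1 interval did not at day 4.

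The day 0 and DMSO libraries, both from feeder cultures without inhibitor, give the spread between experiments. Itgav was at 2.45 TPM at day 0 and 9.32 TPM with DMSO (log2 ratio 1.75, 1.40 to 2.47), and Itgb5 at 10.4 and 21.6 TPM (1.02, 0.73 to 1.39). These 2 of 8 members were past 2-fold, both higher, where 19.4% of tested genes were, 12.2% higher and 7.22% lower. The fibroblast markers summed to 79.3 and 960.5 TPM, with 11 of 12 past 2-fold higher with DMSO, and their part in these values was not tested. That background was 1743 higher and 1033 lower genes, and 581 and 4023 when centred on the germ cell markers. Itga5 differed less, at 12.1 and 18.7 TPM (0.61, 0.37 to 0.89), and Itga6 was at 9.05 and 13 TPM (0.50, 0.20 to 0.84). When centred on the germ cell markers, the log2 ratio was 1.13 for Itgav and 0.39 for Itgb5, and it turned to -0.01 for Itga5, -0.12 for Itga6 and -0.06 for Itgb1 (0.56 as scaled here). The direction for these last 3 subunits between the feeder libraries thus depended on the scaling.

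Ratios within a library do not depend on the scaling between libraries. Per unit of length, Itga6 was at 0.749 times Itga5 at day 0 (counting interval 0.613 to 0.913), 0.901 times at day 4 and 1.18 times at day 9 (1.004 to 1.40). It was at 2.09 times Itga5 in the epithelial-like library (1.61 to 2.72) and at 0.141 times in the mesenchymal-like library (0.120 to 0.164). From GFP-low to GFP-high it was at 4.61, 4.14 and 4.76 times. With DMSO it was at 0.694 times (0.566 to 0.850), and with 0.5, 1 and 2 µM UNC0638 at 2.36, 2.65 and 3.24 times (2.46 to 4.31 at 2 µM). The balance thus favoured Itga5 in the mesenchymal-like, DMSO and day 0 libraries beyond counting error, and Itga6 in the sorted, inhibitor-treated, epithelial-like and day 9 libraries; at day 4 the interval of 0.769 to 1.06 did not decide.

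As a share of the 6 alpha subunits, the mesenchymal-like library was again lowest for laminin receptors, and DMSO was next lowest only with Itgav counted. The laminin receptors Itga3 and Itga6 made up 13.2% of their summed TPM in the mesenchymal-like library and 38.3% to 66.7% in the others, highest in GFP-high. With Itgav left out the laminin share was 15.4% in the mesenchymal-like library and 45.2% to 75.3% in the others, and it moved beyond its counting interval in 11 of 12 libraries. At day 0, day 4 and with DMSO (45.2%, 48.9% and 46.8%) the laminin receptors were then above Itga5, where with Itgav the fibronectin receptors had the larger share. The fibronectin receptors Itga5 and Itgav made up 85.4% in the mesenchymal-like library, 54.5% with DMSO and 21.2% to 46.5% in the other 10. The collagen receptors Itga1 and Itga2 were at 1.39% in the mesenchymal-like library and 7.20% to 14.2% elsewhere. Itga11, a collagen receptor subunit outside the 6 that was highest in the mesenchymal-like library, was not counted. The summed level of the 6 was 159.9 TPM in the mesenchymal-like library and 30.3 to 51.5 TPM in the others. Itgb1 was 2.51 to 3.82 times that sum in every library, so the beta subunit was in excess of these alpha subunits as RNA throughout.

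**Figure D3:**
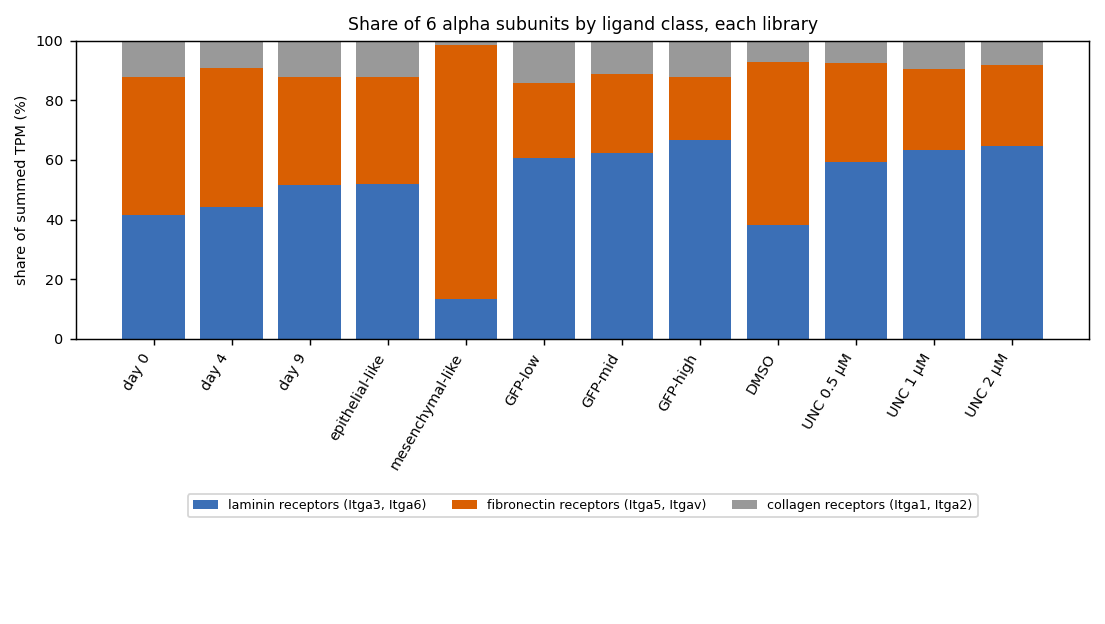
Stacked bars of the share (%) of the summed TPM of 6 alpha subunits held by laminin, fibronectin and collagen receptors in each library. The laminin share was 13.2% in the mesenchymal-like library, 38.3% with DMSO and 66.7% in the GFP-high fraction.

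Set beside the fibroblast markers, Itga5 was highest in the 2 libraries with the highest marker sums, mesenchymal-like and DMSO, and lowest in the sorted fractions. Elsewhere the orders differed. GFP-high had a marker sum of 74.5 TPM, above the epithelial-like (72.7 TPM) and day 4 (66.6 TPM) libraries. Its Itga5 was at 3.67 TPM, against 7.27 and 11.2 TPM in those 2. The 0.5 µM library had rank 3 for the markers and rank 6 for Itga5. Per 100 TPM of fibroblast markers, Itga5 ranged from 1.95 TPM with DMSO to 16.8 TPM at day 4, and was at 7.68 TPM in the mesenchymal-like library. These values describe the libraries and do not separate the sources of the RNA. Itga6 ranked sixth among the 12 libraries in the mesenchymal-like culture and ninth with DMSO.

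**Figure D4:**
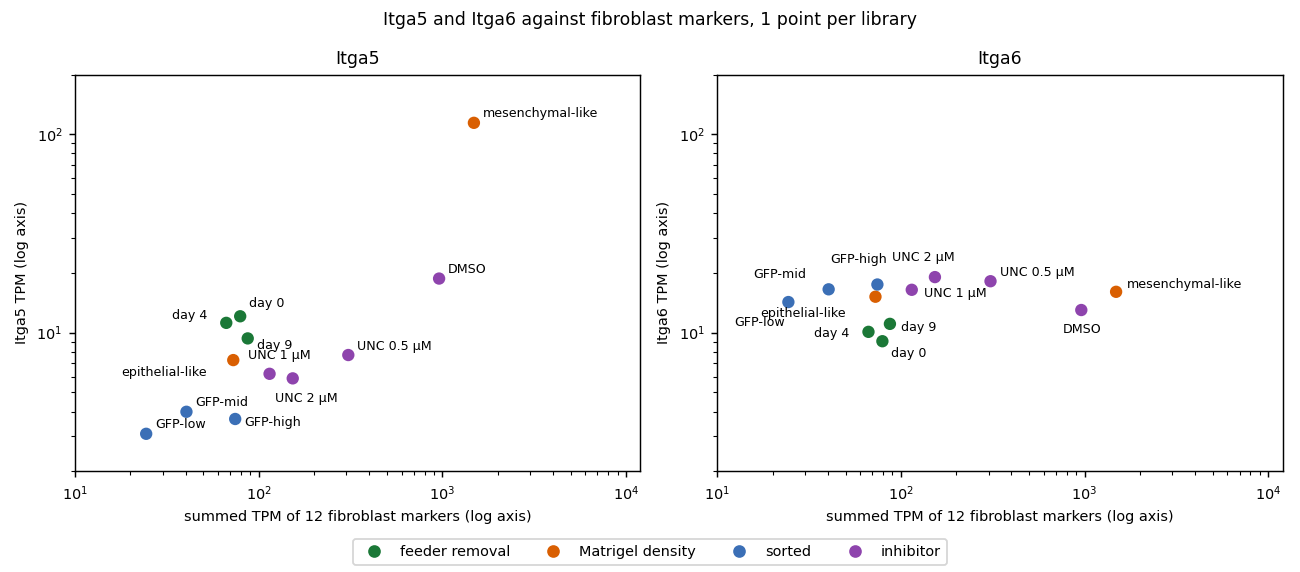
Itga5 TPM (left) and Itga6 TPM (right) against the summed TPM of 12 fibroblast markers, log axes, 1 point per library coloured by experiment. Itga5 spans 3.09 to 114 TPM and is highest in the mesenchymal-like and DMSO libraries, while Itga6 spans 9.05 to 19.1 TPM.

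The genes whose pattern was most like that of Itga5 were found by the root-mean-square difference of log2(CPM + 1), each value less the mean of its experiment, over the 12 libraries, for genes averaging 10 CPM or more. The nearest were Capn2, a calpain protease (0.18), Loxl3, a lysyl oxidase family member (0.19), Serpinh1, a collagen chaperone (0.22), Nbl1, a BMP antagonist (0.22), and Ncam1, a cell adhesion molecule (0.25). Capn2 was at 7.18 and 126 TPM on sparse and dense Matrigel of the density experiment and at 33.03 and 16.6 TPM with DMSO and 2 µM UNC0638. Serpinh1 was at 20.4 and 204 TPM and at 76.8 and 29.1 TPM in the same libraries. Nearest to Itga6 were Akna, Adi1, 5430407P10Rik, Nr4a1 and Sdf2l1, at 0.06 to 0.07, as is common for genes that vary little. The measure compares differences within experiments, not absolute levels, and describes these libraries only.

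Matrix ligands of the fibronectin receptors differed in the same libraries. Fn1, which encodes fibronectin, rose from 38.1 to 378 TPM in the mesenchymal-like library (3.37, 3.27 to 3.47) and was at 116 TPM with DMSO and 84.1, 47.4 and 49.6 TPM with 0.5, 1 and 2 µM UNC0638. Spp1, osteopontin, which binds Itgav receptors, rose from 64.8 to 1867 TPM in the mesenchymal-like library and was at 13.6 to 39.1 TPM in the sorted fractions. Tnc, tenascin C, rose from 0.67 to 52.5 TPM (5.95, 5.57 to 7.26). Vitronectin (Vtn) was at 0.48 TPM or less in all 12 libraries. Of 7 laminin chains tested, 3 were past 2-fold higher in the mesenchymal-like library (10.7% of all tested genes), namely Lama2 (0.07 and 5.88 TPM), Lama4 (0.78 and 5.95 TPM) and Lamb1 (43.8 and 88.3 TPM), while Lama5 was at 8.88 and 7.76 TPM. All 5 collagen chains rose there, Col1a1 from 27.1 to 736 TPM and Col4a1 from 6.47 to 232 TPM. The collagen receptor subunit Itga1 was lower in that library. Itga11, a collagen receptor subunit that is not a member, went the other way and was highest there (values under Other observations). Col1a1, Col1a2 and Col3a1 are also counted among the fibroblast markers. The part of fibroblast-like cells in the ligand levels was not tested either.

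The cytoplasmic machinery that links integrins to actin was higher as a group in the mesenchymal-like library. Of 27 genes, 25 passed the filter, 10 were past 2-fold higher and none lower (10.7% and 1.78% of all tested genes), with a median log2 ratio of 0.92 against -0.06 over all tested genes. The fibroblast markers were higher in the same comparison (11 of 12 past 2-fold, median 3.92), and their part in the machinery genes was not tested. The largest ratios were those of Tns1, a tensin that binds beta tails (0.60 and 25.98 TPM; 5.19, 4.81 to 6.29), Tgfb1i1, a paxillin relative (1.32 and 22.5 TPM; 3.71, 3.28 to 5.18), and Actn1, an actin crosslinker (4.21 and 34.4 TPM; 2.97, 2.63 to 3.58). Tln1, the talin that activates integrins, was at 15.9 and 46.0 TPM. Ptk2, focal adhesion kinase, was at 59.1 and 54.3 TPM. With UNC0638 the counts past 2-fold were near the share over all genes, but more of the group were lower than higher. At 0.5, 1 and 2 µM, 14, 16 and 18 were lower and 10, 8 and 6 higher. The median log2 ratios were -0.07, -0.22 and -0.17, against -0.011, -0.002 and -0.017 over all tested genes. The fibroblast markers were also lower with the inhibitor, and their part was not tested. Of the 25, 1 was past 2-fold higher and none lower at 0.5 µM (1.58% and 2.13% of all tested genes), 1 was higher and 2 lower at 1 µM (2.59% and 4.12%), and none was higher and 1 lower at 2 µM (3.42% and 3.59%), namely Tns1 at 4.02 TPM with DMSO and 1.54 TPM (-1.26, -1.88 to -0.82). In the GFP-high against GFP-low comparison 2 were higher and 1 lower, near the 6.94% and 2.59% of all tested genes. No gene of the group was past 2-fold at day 4 or day 9, near the 2.28% and 2.6% of all tested genes.

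**Figure D5:**
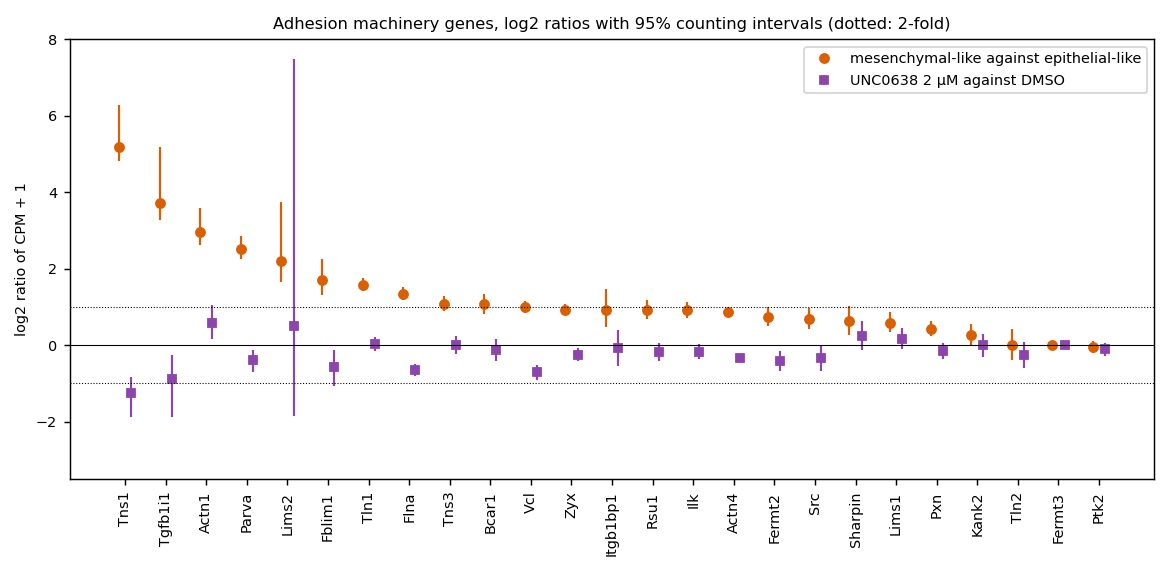
Log2 ratios of CPM + 1 with 95% counting intervals for the 25 adhesion machinery genes that passed the filter, mesenchymal-like against epithelial-like (circles) and 2 µM UNC0638 against DMSO (squares); dotted lines mark 2-fold, and Fermt3 had no counts in these 4 libraries and so no interval. In the density comparison 10 genes lie above 2-fold, led by Tns1 at 5.19.

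Tetraspanins, membrane proteins that associate with laminin-binding integrins, included the spermatogonial marker Cd9. Cd9 was at 340 and 351 TPM on sparse and dense Matrigel of the density experiment and at 324 to 585 TPM over all 12. Cd63 rose from 273 to 961 TPM (1.84, 1.71 to 1.98) and Cd81 from 136 to 491 TPM (1.89, 1.76 to 2.04) in the mesenchymal-like library. These were the 2 of 5 tetraspanins past 2-fold there, where 10.7% of all tested genes were past 2-fold higher. In that comparison 11 of 12 fibroblast markers were past 2-fold higher, and their part in the tetraspanin values was not tested. Cd151, a direct partner of Itga3 and Itga6, was at 107, 79.02 and 76.9 TPM from GFP-low to GFP-high and at 12.01 to 34.9 TPM in the other 9 libraries. All 5 tetraspanins were lower in GFP-high than in GFP-low, none past 2-fold (median log2 ratio -0.62). The 10 myeloid markers were all past 2-fold lower in that comparison, and their part was not tested.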

How the data were processed

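RNA from cultured mouse germline stem cells was made into 12 Smart-seq2-type libraries, per the labels' protocols. The authors deposited 1 RSEM table per library with an expected count (estimated, not normalized) and a TPM (scaled by the authors to length and library) for each gene, per the file headers. The submitters' processing notes name Trim Galore, RSEM and mm10, without versions; the aligner is not given in the sources used here. No member had a fractional count. The 4 ATAC libraries were not analysed here.

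Expected counts were rounded and scaled to CPM with TMM factors (edgeR 4.0.16, R 4.3.3). The 14301 genes averaging 1 CPM or more were tested, and a gene was called at a 2-fold ratio of CPM + 1, a pseudocount that understates changes of low genes and that the 95% Clopper-Pearson intervals do not contain. With 1 library per group there is no p-value across genes. Amplified reads are not independent molecules. Receptor shares and levels between genes used the deposited TPM.

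The named genes were the 9 members, list genes past 2-fold with at least 50 counts (at most 3 each way per list and comparison), list genes by level, and the 5 genes nearest to Itga5 and Itga6. Members and lists were chosen with earlier results of these data known. Of list genes, 7 were matched through RefSeq transcripts. Endothelial markers summed to 4.51 to 8.42 TPM and testis somatic markers (Sertoli, Leydig, peritubular) to 5.59 to 174 TPM, the highest sum being mostly Acta2 (163.6 TPM). Promoters and gene positions came from RefSeq on GRCm38.p6, the assembly of mm10; 7 of 9 members had a promoter there. The steps were tested on simulated counts. Alternatives were pseudocounts of 0.1 and 5, the deposited TPM, scaling by total counts or by DESeq2 1.42.0 size factors, germ cell centring, no filter, 10 CPM, receptor shares without Itgav or from counts, and an exact binomial test on reads. Tables and plots were made in Python 3.11.15 (scipy 1.17.1; pandas 2.3.3; matplotlib 3.10.9).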

Additional observations from a re-analysis of the deposited data

How the results depend on the processing

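The number of integrin subunits past 2-fold kept its value, or stayed within 1.5 times of it, under 86 of 90 combinations of comparison and alternative. The exceptions were the 2 µM comparison, with 2 members at a pseudocount of 0.1, where Itgav reached -1.03, and DMSO against day 0, with 1 member under the deposited TPM, a pseudocount of 5 and germ cell centring. In the density comparison a pseudocount of 0.1 added Itga1 (lower) to the 3 higher members. No called log2 ratio of a member changed sign; 10 uncalled ratios of the 8 tested members did, under at least 1 scaling. Germ cell centring gave -0.01, -0.12 and -0.06 for Itga5, Itga6 and Itgb1 in DMSO against day 0, 0.16 for Itga3 in the mesenchymal-like library against GFP-mid, 0.22 and 0.006 for Itgb1 and Itga1 in GFP-mid, -0.09 and -0.04 for Itga1 and Itgb3 at day 9 and 0.002 for Itgb5 at 2 µM. The deposited TPM gave -0.04 for Itga6 in the mesenchymal-like library against GFP-mid. The ratio of Itga5 ran from 3.75 to 4.20 for the mesenchymal-like against the epithelial-like library and from -1.62 to -1.37 at 2 µM UNC0638. Counts over all genes moved with the pseudocount of 0.1 or 5, the filter at 10 CPM or germ cell centring. They ran from 17 to 1031 at day 4 (326 as reported), 30 to 1025 at day 9 (372), 680 to 2477 in the density comparison (1781), 182 to 1267 for GFP-mid (582), 521 to 2150 for GFP-high (1364), 76 to 1169, 302 to 1656 and 228 to 1751 at the 3 doses (531, 960 and 1003), 1299 to 4604 for DMSO against day 0 (2776) and 998 to 3064 for the mesenchymal-like library against GFP-mid (2364). The deposited TPM and total counts shifted the median of all genes to -0.27 and -0.23 in the last comparison, from -0.04. The deposited TPM moved it to 0.13 at day 9 and 0.11 for GFP-high, from 0.02 and -0.02. Depth limits Itga2 and, at 22 to 57 counts in the inhibitor series, Itgb3. No paired analysis was possible because each RNA group had 1 library.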

Other observations

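Leukocyte integrins, which the report does not cover, were found in the sorted fractions. Itgb2, the beta subunit of leukocytes, was at 11.8, 8.60 and 2.10 TPM from GFP-low to GFP-high and at 1.46 TPM or less in the other 9 libraries. Its partner Itgam was at 3.29, 3.84 and 0.63 TPM there and at 0.37 TPM or less elsewhere. Both fell between GFP-low and GFP-high, with log2 ratios of -2.32 (-3.26 to -2.08) and -1.99 (-3.45 to -1.73). Fermt3, the kindlin of blood cells, was at 7.54, 6.59 and 0.80 TPM (-2.56, -4.50 to -2.45) and at 0.12 TPM or less elsewhere. All 10 myeloid markers, which include Itgam and Itgb2, were past 2-fold lower in GFP-high, and their summed level was 404, 324 and 56.2 TPM. The part of myeloid cells in these values was not tested.

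Other integrin subunits were higher in GFP-high. Itga9 was at 0.59, 1.42 and 3.36 TPM from GFP-low to GFP-high (1.86, 1.54 to 3.29), Itga7, a laminin receptor of muscle, at 3.70, 6.56 and 10.1 TPM (1.21, 0.91 to 1.71), and Itgb4, the partner of Itga6 in hemidesmosomes, at 0.44, 1.41 and 2.16 TPM (1.62, 1.25 to 3.11). Of the 17 other integrin subunits 11 passed the filter, and 4 were past 2-fold higher and 3 lower in GFP-high, against 6.94% and 2.59% of all tested genes. In the same comparison 6 of 12 fibroblast markers (median log2 ratio 0.97) and 5 of 5 collagen chains were past 2-fold higher, and 3 of 10 germ cell markers (Gfra1, Ret and Etv5) were past 2-fold lower; their part in the integrin values was not tested. Itgb7 was at 9.58 to 11.7 TPM in the feeder-removal series and at 1.72 to 5.97 TPM in the other 9 libraries. Itga11, a collagen receptor of fibroblasts, was at 3.44 TPM in the mesenchymal-like library, 2.85 TPM with DMSO and 1.04 TPM or less in the others.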
